A study of Mus musculus with 32 samples.

Results

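The 10 genes described here encode aldehyde dehydrogenases, and they were chosen by name from gene tables of 32 mouse quadriceps libraries: Aldh3a1, Aldh3a2, Aldh3b1, Aldh1a1, Aldh1a2, Aldh1a3, Aldh2, Aldh9a1, Aldh6a1 and Aldh1l1. They are 10 of the 21 genes whose name begins with Aldh, and the tables list 53801 gene IDs in all. Aldh3a1 was selected on its measured level, high in 5-week-old Col6a2-/- muscle, so its values are given as a description, without a test, wherever those mice enter. The question asked of the family was whether the 5-week rise of Aldh3a1 is shared by its relatives. All 10 passed the filter on low values (at least 1 TPM in at least 4 libraries), but Aldh3a1 passed it through the 8 Col6a2-/- libraries of 5 weeks alone. TPM (transcript abundance scaled for length and to a fixed library total) is the unit of every level given.

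Aldehyde dehydrogenases oxidise aldehydes to carboxylic acids, with NAD or NADP as the cofactor. Their substrates are reactive by-products of lipid peroxidation and alcohol breakdown, and also intermediates of normal metabolism such as retinaldehyde, fatty aldehydes and the semialdehydes of amino acid breakdown. Aldh3a1 is best known as an abundant soluble protein of the mouse cornea and as a gene that the aryl hydrocarbon receptor induces.

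The series title concerns collagen VI and the availability of TGFβ, a growth factor held in the extracellular matrix, in skeletal muscle. WT mice and mice homozygous for the knockout allele Col6a2 tm1(KOMP)Vlcg, an allele of a gene for one of the chains of collagen VI, were both bred from Col6a2+/- parents. The allele was made in C57BL/6N and crossed to C57BL/6J for 5 generations, so all groups share that mixed origin, and it is a germline allele that does not single out muscle cells. Females and males were taken at 5 or 25 weeks, which gave 8 groups of 4 mice, each mouse with 1 library of RNA from cryosections of whole muscle, and mice of 5 and 25 weeks were different animals. In bulk tissue, fewer cells of a type and less RNA per cell cannot be told apart.

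Col6a2 lay between 6.60 and 51.2 TPM in the 16 WT libraries and at or below 0.171 TPM in the 16 Col6a2-/- libraries, so no library went against its genotype label. The adult fibre genes used to check the tissue label (7 genes, among them Acta1, Ckm and Ttn) summed to between 12900 and 21350 TPM in the libraries. Read counts per library are not given by the tables. The deposited coverage divided by FPKM, a relative measure of depth, ran from 6.78 to 13.7, and between 10399 and 12877 genes reached 1 TPM, with the highest number in Col6a2-/- female replicate 2 of 5 weeks. Mitochondrial genes took 31.9% to 46.9% of TPM. The small RNA genes Rn7sk, Rn7s1, Rn7s2 and Rn7s6, called Rn7s genes here, together took 20.8% to 30.5%. The median tested gene was 0.145 higher (log2) in Col6a2-/- than in WT at 5 weeks. Rescaling without mitochondrial and Rn7s genes gave 0.138, and median-of-ratios scaling, which sets this median near 0 by construction, gave 0.000616. The cause of the shift was not tested.

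Aldh3a1 oxidises medium-chain and aromatic aldehydes, including those that arise from lipid peroxidation. It lies on chromosome 11 of GRCm38 (chr11:61207537-61218421, plus strand; ENSMUSG00000019102), and no other listed gene overlaps it. At 5 weeks the Col6a2-/- females had 19.9, 32.9, 12.3 and 4.51 TPM in replicates 1 to 4, and the Col6a2-/- males had 23.2, 15.9, 33.4 and 19.3 TPM. The WT females of that age had 0, 0.0853, 0.0207 and 0 TPM, and the WT males 0.117, 0, 0.148 and 0.0232 TPM. Every Col6a2-/- library of 5 weeks thus lay above every WT library, and female replicate 4 was the lowest of the 8. These are the values that chose the gene; among all 12817 tested genes, 1.18% had 8 Col6a2-/- libraries that all lay above the 8 WT libraries at 5 weeks.

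At 25 weeks Aldh3a1 was low in both genotypes. Col6a2-/- females had 0.0800, 0.0229, 0.192 and 0.184 TPM, and Col6a2-/- males 0.302, 0.133, 0.132 and 0.0330 TPM. WT females had 0, 0.236, 0.142 and 0.103 TPM and WT males 0.0297, 0.233, 0 and 0.0411 TPM. The genotypes overlapped at this age, 5 of the 24 libraries outside the high group listed the gene at 0, and none of the 24 exceeded 0.302 TPM. No test is given here, since the gene passed the filter only through the 5-week Col6a2-/- libraries. The difference was 0.05 on the log2(TPM + 1) scale, where the described 5-week value was 4.16 (3.88 in females and 4.43 in males).

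**Figure D1:**
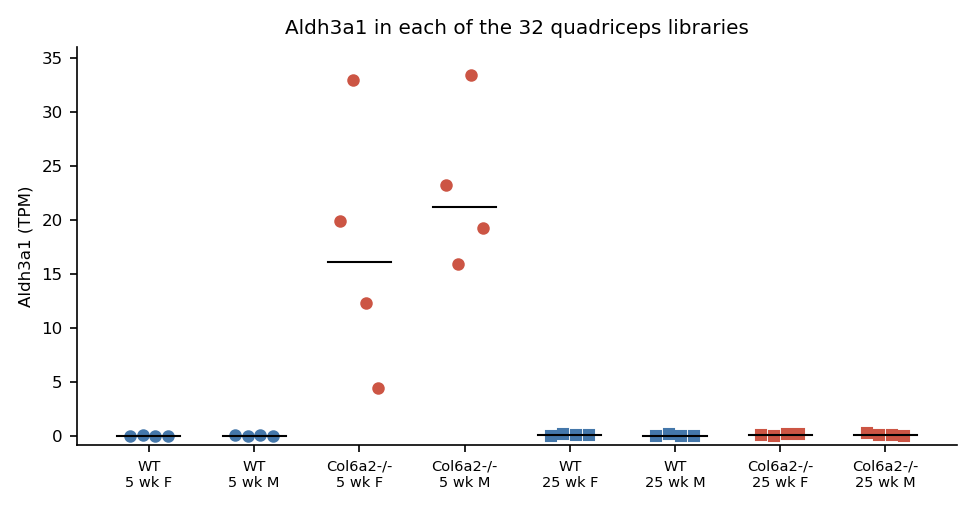
Aldh3a1 in TPM (vertical axis) in each library of the 8 groups (4 points a group, horizontal line at the median), WT in blue and Col6a2-/- in red, circles for 5 weeks and squares for 25 weeks. The 8 Col6a2-/- libraries of 5 weeks spread from 4.51 to 33.4 TPM, and the other 24 lie at or below 0.302 TPM.

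The 10 genes without Aldh3a1 summed to 102.0 ± 17.5 TPM in WT and 97.7 ± 9.79 TPM in Col6a2-/- muscle at 5 weeks (SD, n = 8). With Aldh3a1 the Col6a2-/- sum was 117.9 ± 8.84 TPM, so the gene made up 17.0% of the sum of the 10 genes there (range 3.93% to 27.2%) and at most 0.202% in any other library. In WT muscle of 5 weeks the order of mean levels was Aldh6a1 (34.9 TPM), Aldh1a1 (31.4), Aldh2 (19.7), Aldh1l1 (7.66), Aldh3a2 (4.95), Aldh9a1 (1.44), Aldh1a3 (0.917), Aldh3b1 (0.660), Aldh1a2 (0.512) and Aldh3a1. Neighbours in this order overlapped between libraries, except that Aldh3a2 (lowest 3.94 TPM) lay above Aldh9a1 (highest 2.02 TPM) and Aldh1a2 (lowest 0.192 TPM) above Aldh3a1 (highest 0.148 TPM). In Col6a2-/- muscle of 5 weeks the mean of Aldh3a1 was 20.2 ± 9.82 TPM (SD, n = 8), beside 20.7 ± 6.08 TPM for Aldh2, and the libraries of both genes overlapped.

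The genes whose pattern over the 32 libraries was most like that of Aldh3a1 were found by Pearson's r of log2(TPM + 1), a description that rests mainly on the step between the 8 high libraries and the other 24. Mymx, a membrane peptide that drives myoblast fusion, came first (r = 0.99), followed by Chrng, the fetal subunit of the muscle acetylcholine receptor (0.989), Mfsd7a (0.984), Krt8 (0.984), Plekhh1 (0.98), Krt18 (0.977), Col19a1 (0.974) and Gm34006 (0.962). Mymx had a mean of 0.136 TPM in WT and 12.9 TPM in Col6a2-/- muscle at 5 weeks, and 0.346 TPM in Col6a2-/- muscle at 25 weeks. Krt18, a keratin of simple epithelia, stood at 0.0762, 7.94 and 0.318 TPM in the same groups, and its partner Krt8 was listed at 0 in all 8 WT libraries of 5 weeks. All 8 genes had their highest mean in Col6a2-/- muscle of 5 weeks, and none of them is an aldehyde dehydrogenase. The family member most like Aldh3a1 was Aldh3b1, at r = 0.75 and rank 670 of 12817, although within the 8 high libraries alone its r was 0.964.

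**Figure D2:**
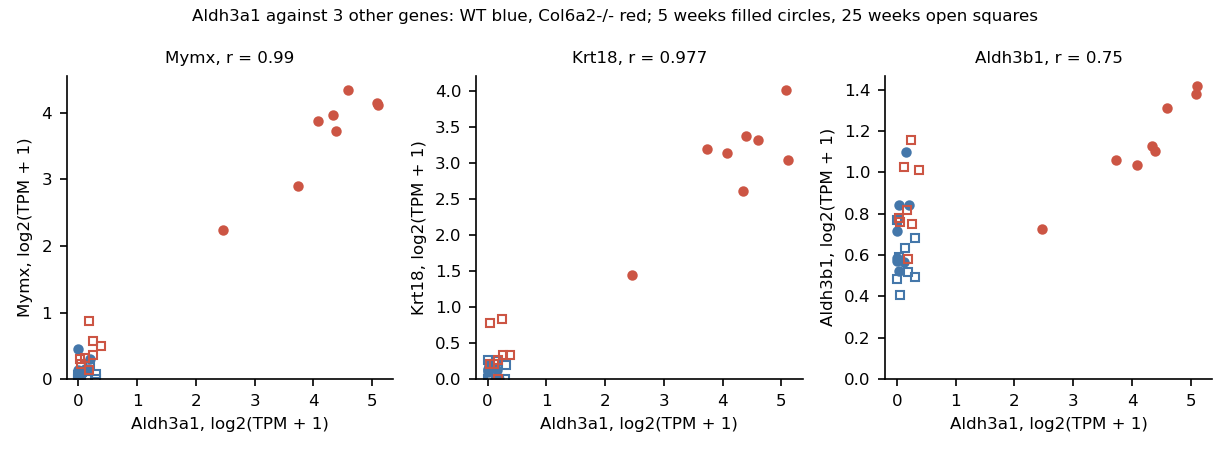
Levels of Mymx, Krt18 and Aldh3b1 (vertical axes) against Aldh3a1 (horizontal axis), all as log2(TPM + 1), with 1 point a library; WT is blue, Col6a2-/- red, 5 weeks filled circles and 25 weeks open squares. Mymx and Krt18 follow the step of Aldh3a1 (r = 0.99 and 0.977), whereas Aldh3b1 was measured above 0 in every group and gave r = 0.75.

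Several cell type markers moved with Aldh3a1, in a comparison that called 23.2% of all tested genes higher and 2.14% lower. At 5 weeks all 8 macrophage markers were called higher in Col6a2-/- muscle, with summed levels of 93.8 to 318.5 TPM against 56.0 to 95.1 TPM in WT, and Myh3, the embryonic myosin of regenerating fibres, stood at 12.3 against 1.47 TPM. Of the 10 tested genes of satellite cells and regenerating fibres, Mymk, Mymx and Chrng passed the filter only through these Col6a2-/- libraries and are not counted, and 6 of the other 7 were called higher. Fibroblast markers were called higher in 6 of 9 cases, summing to 586 to 2051 TPM against 640 to 1495 TPM. Of 7 epithelial markers only Krt8 and Krt18 passed the filter, and only through these Col6a2-/- libraries, so the list is described without a test. The 7 markers together summed to 2.45 to 17.98 TPM against 0.0343 to 0.496 TPM in WT. Nearly all of the Col6a2-/- sum (mean 9.99 TPM) came from Krt18 (mean 7.94 TPM) and Krt8 (mean 1.88 TPM). Both keratins are among the genes picked above as most like Aldh3a1, so the sum does not describe the list as a whole. Krt5 and Krt14 were listed at 0 in all libraries, and the corneal keratin Krt12 reached at most 0.0357 TPM in any library. Among the other 6 tissue lists, 2 of 5 endothelial and 2 of 5 smooth muscle genes were called higher, and no gene of the adipocyte, Schwann cell, tenocyte or erythrocyte lists was called. The shares of 2 of 5 rest on 5 genes each and are read no further. Of the adult fibre genes, 2 of 7 were called lower.

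Within the 8 Col6a2-/- libraries of 5 weeks, Aldh3a1 ran alongside several of these measures. Its r was 0.916 with the summed fibroblast markers, 0.905 with the macrophage markers and 0.849 with the epithelial markers. It was 0.831 with the endothelial markers and 0.802 with the regenerating fibre genes. The other lists gave 0.692 (erythrocyte), 0.659 (tenocyte), 0.624 (smooth muscle), 0.548 (adult fibre), 0.371 (Schwann cell) and -0.0974 (adipocyte). With the number of genes at 1 TPM or more r was 0.902, and with the relative depth -0.781. The epithelial and regenerating fibre sums hold Krt8, Krt18, Mymx and Chrng, which were picked above as most like Aldh3a1. These 8 points share their libraries and their depth, so the r values are descriptions. The part that any of these cell types, or depth, plays in the level of Aldh3a1 was not tested.

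The chromosomal neighbours of Aldh3a1 differed between genotypes at 5 weeks by 0.97 or less on the log2(TPM + 1) scale. Its relative Aldh3a2 lies on the opposite strand with its 3′ end 4995 bp to the right, and is described below. On the left, the ribosomal pseudogene Rps13-ps5, 1361 bp away, differed by 0.22 (SE 0.08, adjusted p = 0.0494), Usp22, a deubiquitinase, by 0.20 (SE 0.12, adjusted p = 0.208), and Kcnj12, a potassium channel, by -0.12 (SE 0.11, adjusted p = 0.435). On the right, the transporter Slc47a1 differed by 0.28 (SE 0.17, adjusted p = 0.205) and the microfibril protein Mfap4, 267009 bp away, by 0.97 (SE 0.20, adjusted p = 0.000975). Mfap4 stood at 7.91 ± 3.05 TPM in WT and 17.1 ± 7.19 TPM in Col6a2-/- muscle (SD, n = 8), and it was also called at 25 weeks (0.70, SE 0.20, adjusted p = 0.0445).

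Of the 9 relatives, 4 were called higher in Col6a2-/- muscle at 5 weeks and 1 was called lower. The same test called 23.2% of all tested genes higher and 2.14% lower (2979 and 274 genes). Leaving out 1 library moved the 2979 to between 1923 and 4436. The lowest was without Col6a2-/- female replicate 2 of 5 weeks and the highest without female replicate 4 of that group. After median-of-ratios scaling, 2 relatives were called higher (Aldh1a2 and Aldh3b1) and 2 lower (Aldh1l1 and Aldh6a1), beside 1623 higher and 1479 lower of all genes. The median change of the 9 was 0.05 against 0.145 for all genes. The differences of the called relatives lay between -1.06 and 0.55 on the log2(TPM + 1) scale, where the value of Aldh3a1 was 4.16. Leaving out WT male replicate 4 or Col6a2-/- female replicate 2 of 5 weeks took the count of called relatives from 5 to 3 (Aldh1a2, Aldh3b1 and Aldh1l1). Aldh3a1 and Aldh3a2 share 67.7% of 1348 aligned coding bases and no run of 50 bases.

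**Figure D3:**
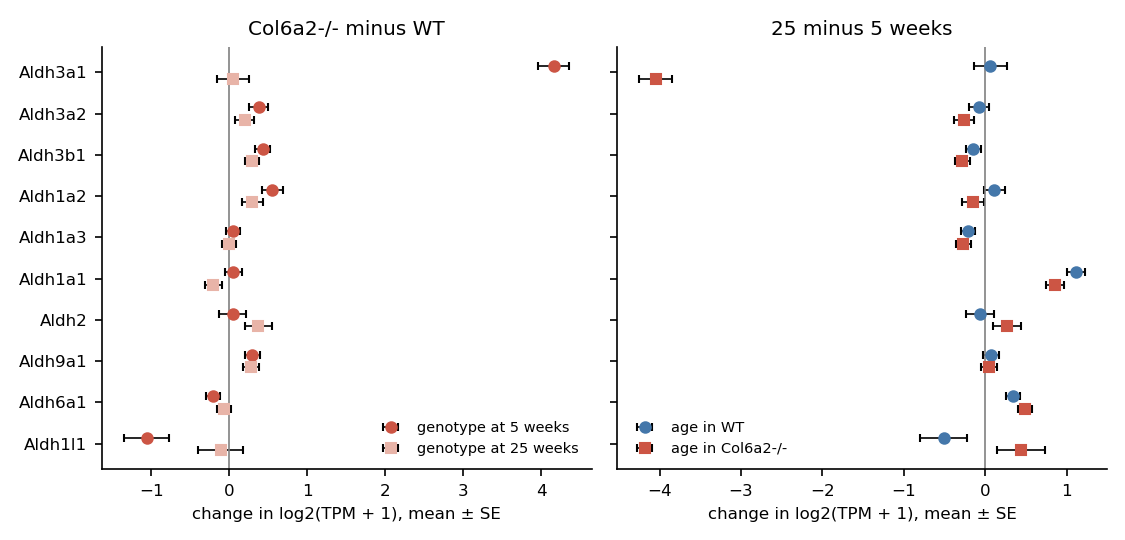
Changes in log2(TPM + 1) with their standard errors from limma for the 10 genes, Col6a2-/- minus WT at 5 and 25 weeks on the left and 25 minus 5 weeks in each genotype on the right. Aldh3a1 stands alone at 4.16 on the left and -4.05 on the right, Aldh1l1 is the lowest at 5 weeks, and Aldh1a1 has the highest change with age in both genotypes.

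Aldh3a2 encodes the fatty aldehyde dehydrogenase of the endoplasmic reticulum, which oxidises long-chain aldehydes from sphingolipid and ether lipid breakdown and is deficient in Sjögren-Larsson syndrome. It lies at chr11:61223417-61267464, minus strand. At 5 weeks its lowest, median and highest levels were 3.94, 4.82 and 6.77 TPM in WT and 4.61, 6.51 and 12.4 TPM in Col6a2-/-. The groups overlapped, and the highest value belonged to Col6a2-/- female replicate 2, the library with the most genes at 1 TPM or more. The ratio of means was 1.40, and the difference was called (0.38, SE 0.12, adjusted p = 0.0239, with 8 of 8 libraries above the mean log2(TPM + 1) of WT mice of their sex). Without that library it was 0.24 and the call was lost (adjusted p = 0.0573); it was also lost without WT male replicate 4 (0.0511), after median-of-ratios scaling (0.21, adjusted p = 0.0905) and after quantile normalization (0.21, adjusted p = 0.102).

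Aldh3b1, an enzyme of medium-chain and long-chain aldehydes from lipid peroxidation, had the lowest adjusted p of the relatives. It lies at chr19:3913493-3929761, minus strand, and its lowest, median and highest levels at 5 weeks were 0.436, 0.574 and 1.14 TPM in WT and 0.653, 1.17 and 1.67 TPM in Col6a2-/-. It reached 1 TPM in 7 Col6a2-/- libraries and 1 WT library of that age. The ratio of means was 1.87, and the difference was 0.43 (SE 0.09, adjusted p = 0.00111, 8 of 8 libraries above the WT mean on that log2 scale). It shares 85.3% of 1397 coding bases with Aldh3b3, which never exceeded 0.0643 TPM, and 83.6% of 1397 with Aldh3b2, which reached 0.803 TPM. Windows of 50 bases were shared with both (163 and 122), but 0 windows of 150 bases. How the authors' counting split shorter matches was not tested. Macrophage markers moved with Aldh3b1 here too (r = 0.860 over the 8 Col6a2-/- libraries and 0.867 over the 8 WT libraries of 5 weeks), and so did other measures. Over the Col6a2-/- libraries r was 0.907 with fibroblast, 0.83 with endothelial and 0.822 with regenerating fibre genes, and 0.934 with the number of genes at 1 TPM or more. Over the WT libraries it was 0.844 with Schwann cell genes and 0.81 with that number. Adipocyte genes gave -0.0814 and 0.00479. The part of these measures was not tested.

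The 100 bases before the start of Aldh3a2, Aldh3b1, Aldh1a2 and Aldh9a1 are shown because these are the 4 relatives called higher at 5 weeks. They come from RefSeq (GRCm38.p6), which matched 7 of the 10 genes, and capitals mark letters of the searched motifs. The starts are those of RefSeq, and the Aldh3a2 window lies inside the gene span given above. Aldh3a1, Aldh1a3 and Aldh2 were not matched. The motifs, searched on both strands of the 250 bases before each start, were the NRF2 element core TGACNNNGC, the aryl hydrocarbon receptor core GCGTG, the CCAAT box, the TATA box TATAAA and the E-box CAGCTG, none of which overlapped another in these genes.
Aldh3a2 (chr11:61267187-61267286, minus strand): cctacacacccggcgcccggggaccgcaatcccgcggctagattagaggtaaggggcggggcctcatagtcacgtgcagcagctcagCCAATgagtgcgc
Aldh3b1 (chr19:3929779-3929878, minus strand): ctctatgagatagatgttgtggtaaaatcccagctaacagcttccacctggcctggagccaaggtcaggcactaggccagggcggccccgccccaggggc
Aldh1a2 (chr9:71215689-71215788, plus strand): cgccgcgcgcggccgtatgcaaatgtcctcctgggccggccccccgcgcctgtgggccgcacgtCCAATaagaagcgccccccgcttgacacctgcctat
Aldh9a1 (chr1:167349891-167349990, plus strand): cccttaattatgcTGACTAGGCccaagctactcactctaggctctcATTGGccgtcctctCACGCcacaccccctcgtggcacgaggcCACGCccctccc
The NRF2 core was found in Aldh9a1 (first base at -87) and Aldh1a2 (-112, before the printed window), and 10.2% of 32851 promoters hold it. The GCGTG core was found in Aldh9a1, Aldh1a2 and Aldh3a2 (28.2% of promoters), and the CCAAT box in the same 3 genes (33.8%). In Aldh1a2 (-128) and Aldh3a2 (-117) the GCGTG core lies before the printed window. Aldh3b1 held none of the searched motifs, and none of the 4 genes held a TATA box (12.4%) or the E-box (13.0%).

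The class 1A enzymes make retinoic acid from retinaldehyde. Aldh1a2, the main source of retinoic acid in the embryo, lies at chr9:71215789-71296243, plus strand. At 5 weeks WT females had 0.192, 0.315, 0.355 and 0.323 TPM and WT males 0.553, 1.02, 0.702 and 0.632 TPM. Col6a2-/- females had 0.699, 1.15, 0.929 and 0.540 TPM and Col6a2-/- males 1.18, 2.51, 1.87 and 1.20 TPM. Within each sex every Col6a2-/- library lay above every WT library, as in 3.6% of all tested genes, while across sexes the ranges overlapped. The ratio of means was 2.46 and the difference was 0.55 (SE 0.13, adjusted p = 0.00356), which passed in all of the alternatives in which the gene was tested.

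Aldh1a3, the third retinaldehyde dehydrogenase, lies at chr7:66390890-66427517, minus strand, and stood at 0.917 ± 0.214 TPM in WT and 0.994 ± 0.265 TPM in Col6a2-/- muscle at 5 weeks (SD, n = 8). The groups overlapped widely, with a difference of 0.05 (SE 0.09, adjusted p = 0.682, 95% interval from -0.128 to 0.234). Aldh1a1, the cytosolic enzyme that is also used as a marker of progenitor cells, lies at chr19:20492715-20643462, plus strand. Its lowest, median and highest levels were 20.9, 29.0 and 42.5 TPM in WT and 21.2, 33.9 and 43.4 TPM in Col6a2-/- muscle, nearly the same range. The difference was 0.05 (SE 0.11, adjusted p = 0.742, interval from -0.173 to 0.280), and both genes turned to a small negative value after median-of-ratios scaling.

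Aldh1a1 has a near copy on the same chromosome, Aldh1a7, with 91.6% identity over 1503 coding bases and 151 shared windows of 50 bases, but 0 of 1904 windows of the 150-base read length were shared. How the authors' counting split shorter matches was not tested. The copy extends into the promoter: a run of 65 bases, in capitals here, occurs in these 2 of 32851 promoters and in no other. The starts are again those of RefSeq, and the Aldh1a1 window lies inside the gene span given above.
Aldh1a1 (chr19:20601868-20601967, plus strand): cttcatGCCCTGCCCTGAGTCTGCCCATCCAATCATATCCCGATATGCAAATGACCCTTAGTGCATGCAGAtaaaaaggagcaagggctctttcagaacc
Aldh1a7 (chr19:20727557-20727656, minus strand): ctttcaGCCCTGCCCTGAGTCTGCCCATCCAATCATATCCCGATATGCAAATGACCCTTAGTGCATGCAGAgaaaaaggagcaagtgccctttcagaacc
The levels of the pair differed in spite of the shared run: at 5 weeks Aldh1a7 stood at 1.40 ± 0.545 TPM in WT and 1.96 ± 0.758 TPM in Col6a2-/- muscle, and at 25 weeks at 0.822 ± 0.628 and 1.10 ± 0.584 TPM (SD, n = 8). With age, Aldh1a1 rose (see the age comparison below), while Aldh1a7 changed by -0.44 in WT (SE 0.20, adjusted p = 0.132) and -0.51 in Col6a2-/- mice (SE 0.20, adjusted p = 0.0532), which did not pass.

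Aldh2, the mitochondrial enzyme of acetaldehyde clearance, lies at chr5:121566027-121593824, minus strand, and showed overlapping levels of 12.3 to 25.0 TPM in WT and 10.6 to 31.8 TPM in Col6a2-/- muscle at 5 weeks. Its difference was 0.04 (SE 0.17, adjusted p = 0.868, interval from -0.312 to 0.401). Aldh9a1, which oxidises trimethylaminobutyraldehyde on the way to carnitine, lies at chr1:167349991-167368532, plus strand. Its lowest, median and highest levels were 1.03, 1.40 and 2.02 TPM in WT and 1.33, 1.92 and 2.57 TPM in Col6a2-/-. The groups overlapped, the ratio of means was 1.39, and the difference was called (0.30, SE 0.10, adjusted p = 0.0292, 8 of 8 libraries above the WT log2 mean for their sex). The call was lost after quantile normalization (0.11, adjusted p = 0.387), after median-of-ratios scaling (0.17, adjusted p = 0.180), without a filter (adjusted p = 0.0536), on rescaling without mitochondrial and Rn7s genes (adjusted p = 0.0518) and on leaving out any of 4 single libraries (adjusted p up to 0.0713), which were WT female 2, WT male 4, Col6a2-/- female 2 and Col6a2-/- male 1.

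Aldh6a1, the mitochondrial methylmalonate semialdehyde dehydrogenase of valine breakdown, lies at chr12:84430717-84451004, minus strand. At 5 weeks it stood at 34.9 ± 7.86 TPM in WT and 29.5 ± 4.03 TPM in Col6a2-/- muscle (SD, n = 8), with overlapping ranges of 23.7 to 48.8 and 23.1 to 34.5 TPM. The difference of -0.21 (SE 0.09, adjusted p = 0.0731) was not called, and it was called after median-of-ratios scaling (-0.40, adjusted p = 0.00382), after quantile normalization (-0.33, adjusted p = 0.00891), on log2(FPKM + 1) (-0.24, adjusted p = 0.0182) and without any of 3 single libraries.

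Aldh1l1, the cytosolic formyltetrahydrofolate dehydrogenase of folate metabolism, went the opposite way to Aldh3a1. It lies at chr6:90486427-90600203, plus strand, and overlaps Gm15756, whose mean was 1.0 TPM. At 5 weeks WT females had 10.9, 2.13, 3.24 and 13.3 TPM and WT males 2.63, 10.9, 6.94 and 11.2 TPM. Col6a2-/- females had 4.05, 1.92, 4.52 and 2.34 TPM and Col6a2-/- males 2.46, 1.42, 1.86 and 3.04 TPM. In WT 5 libraries lay between 6.94 and 13.3 TPM and 3 lay inside the Col6a2-/- range, so the groups overlapped. The ratio of means was 0.353 and the gene fell by 1.06 on the log2(TPM + 1) scale (SE 0.29, adjusted p = 0.00843, with 8 of 8 libraries below the WT log2 mean for their sex). This call held without each single library, with changes from -1.25 to -0.884. The spread among the WT libraries had r between -0.199 and 0.387 with the 11 marker sums, the highest with erythrocyte genes, and its source was not tested.

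**Figure D4:**
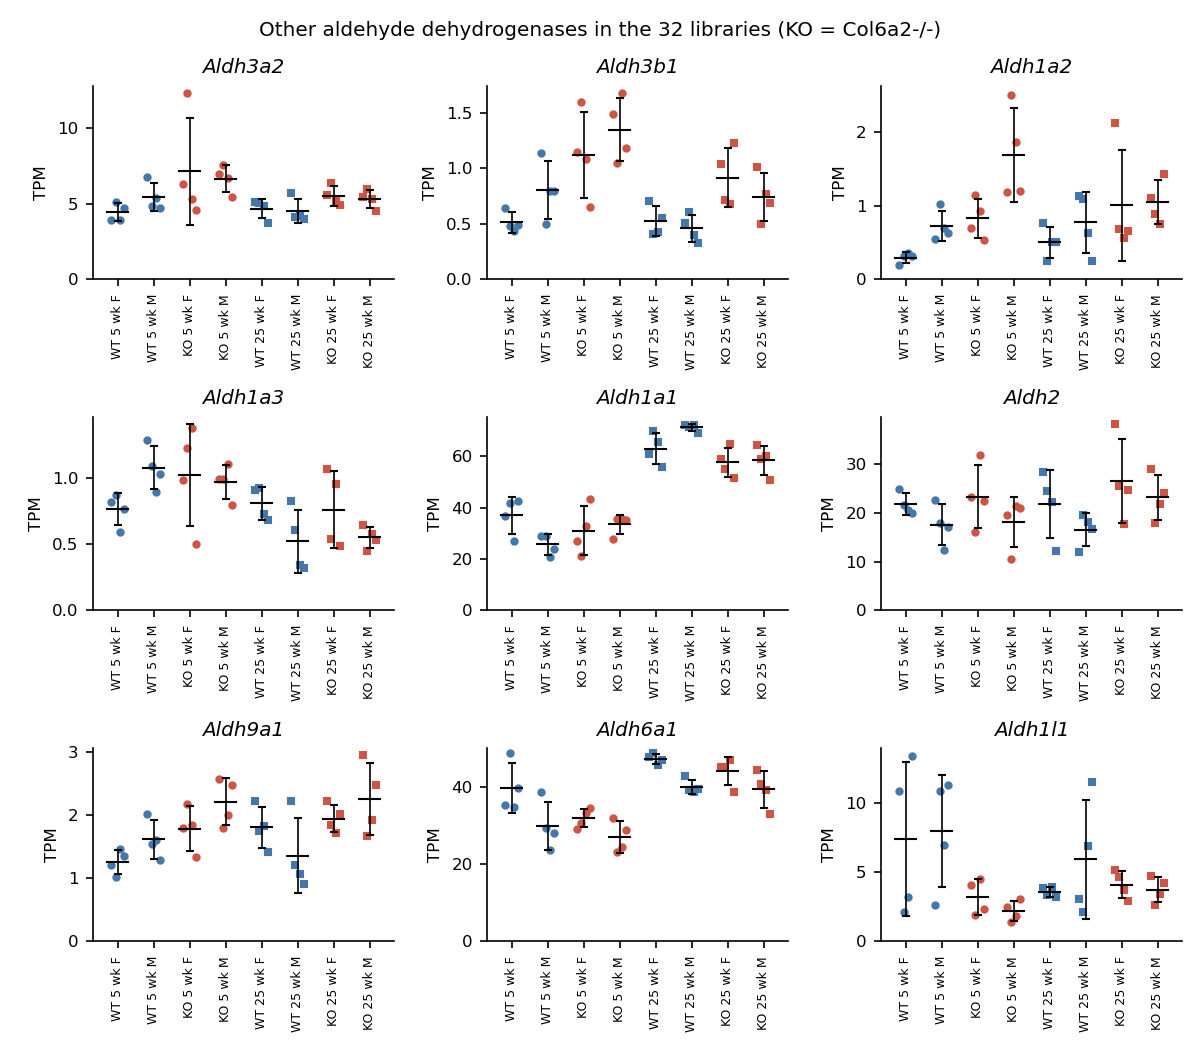
TPM (vertical axes, from 0) of the other 9 aldehyde dehydrogenases in every library of the 8 groups, with the group mean (line) and SD (bar), n = 4; KO stands for Col6a2-/-, WT is blue, circles are 5 weeks and squares 25 weeks. The red circles of Aldh3b1, Aldh1a2 and Aldh9a1 sit above the blue circles of the same sex for the most part, those of Aldh1l1 at or below 4.52 TPM, and the squares of Aldh1a1 at 50.8 TPM or higher.

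The other 11 genes of the family were given by name as well. Aldh1b1, Aldh3b2, Aldh3b3 and Aldh8a1 did not pass the filter, with highest levels of 0.602, 0.803, 0.0643 and 0.0217 TPM. Of the 7 tested, 1 was called higher and 0 lower at 5 weeks, beside 23.2% and 2.14% of all tested genes. This count is not above that background and is not a result about the family. The gene called was Aldh16a1, higher by 0.26 (SE 0.08, adjusted p = 0.0191), from 1.66 ± 0.249 to 2.18 ± 0.268 TPM (SD, n = 8). It overlaps Pih1d1, whose mean was 12.4 TPM, so its reads are uncertain, and after median-of-ratios scaling 0 of the 7 were called higher and 1 lower. The others (Aldh1a7, Aldh1l2, Aldh4a1, Aldh5a1, Aldh7a1 and Aldh18a1) had differences between -0.17 and 0.30. Of these, Aldh7a1 overlaps Phax (mean 5.97 TPM, against 5.93 TPM for Aldh7a1), so its reads are uncertain too.

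Genes that feed or regulate these enzymes were read from lists chosen for their function, and their counts stand beside 23.2% of all tested genes called higher and 2.14% lower; a share near these is not a result about a list. Of the retinoid list, 14 of 21 were tested, with 3 called higher and 1 lower, among them Dhrs3, a retinaldehyde reductase (0.47, adjusted p = 0.00245), Rdh11, another reductase (0.30, adjusted p = 0.0239), and the receptor Rxrg (-0.49, adjusted p = 0.000782). Rarb and Cyp26b1, which are only some of the targets of retinoic acid, were not called. Rarb stood at 2.42 and 2.29 TPM in WT and Col6a2-/- muscle, and Cyp26b1 at 0.454 and 0.351 TPM. After median-of-ratios scaling the retinoid list had 1 call higher and 3 lower.

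Of 16 genes of the NRF2 antioxidant response 15 were tested, with 3 called higher and 1 lower, a share of higher calls near the 23.2% of all genes. Hmox1, haem oxygenase, rose by 0.92 (adjusted p = 5.72e-06), Srxn1, sulfiredoxin, by 0.58 (adjusted p = 0.00034) and Pgd, of the pentose phosphate pathway, by 0.48 (adjusted p = 0.0216), while Gstm1 fell by 0.36 (adjusted p = 0.0289). Nqo1, a classical target, differed by 0.01 (adjusted p = 0.961), and Gclc and Gclm by 0.18 and 0.08. Of 7 genes of the aryl hydrocarbon receptor system 3 were tested, and Ahr itself was called (0.28, adjusted p = 0.0295). Its target Cyp1a1 did not pass the filter, with means of 0.212 TPM in WT and 0.287 TPM in Col6a2-/- muscle, and neither did Cyp1b1, with 0.308 and 0.790 TPM. After median-of-ratios scaling the NRF2 list had 2 calls in each direction and the receptor list 0.

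Enzymes of other carbonyl pathways were called higher in 4 of 11 tested of 14, and lower in 0. These were the aldo-keto reductases Akr1b8 (0.75, adjusted p = 3.49e-05) and Akr1a1 (0.32, adjusted p = 0.0212), aldehyde oxidase Aox1 (0.39, adjusted p = 0.00325) and carbonyl reductase Cbr3 (0.26, adjusted p = 0.0251); median-of-ratios scaling gave 2 calls higher and 2 lower. Akr1b8 stood at 0.966 ± 0.193 TPM in WT and 2.39 ± 0.760 TPM in Col6a2-/- muscle (SD, n = 8). Of the sources of fatty aldehydes, 3 of 5 tested of 7 were called higher: Far1, which makes fatty alcohols for ether lipids (0.47, adjusted p = 0.0102), Sgpl1, the lyase that releases the substrate of Aldh3a2 from sphingosine phosphate (0.42, adjusted p = 0.0131), and Sptlc2 (0.29, adjusted p = 0.0363). After median-of-ratios scaling 2 genes of this list were called higher and 0 lower.

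The partners of Aldh6a1 in branched-chain amino acid breakdown gave 1 call in each direction among 15 tested of 15, Acad8 (0.33, adjusted p = 0.0112) and Bckdhb (-0.22, adjusted p = 0.0144), and after median-of-ratios scaling 5 were called lower and 0 higher. The carnitine list gave 1 call higher of 4 tested of 5, Tmlhe (0.30, adjusted p = 0.00518), with 0 lower; that scaling gave it 0 higher and 1 lower. Beside the median of 0.145 for all genes at 5 weeks, the median change of the tested genes was 0.17 in the retinoid list, 0.16 in the NRF2 list, 0.22 in the receptor list, 0.15 in the carbonyl list, 0.29 in the fatty aldehyde list, 0.02 in the branched-chain list and 0.19 in the carnitine list.

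At 25 weeks none of the 9 relatives was called between genotypes by limma, where 4.7% of all tested genes were called (573 higher and 30 lower, and 750 and 532 after median-of-ratios scaling). Leaving out 1 library moved the 573 to between 245 and 936. The lowest was without Col6a2-/- male replicate 1 of 25 weeks and the highest without Col6a2-/- female replicate 2 of 5 weeks. At an unadjusted p under 0.05 in limma there were 4 of the 9 (Aldh3b1, Aldh9a1, Aldh1a2 and Aldh2), beside 19.3% of all genes, and the lowest adjusted p was 0.0623. That gene was Aldh3b1, at 0.492 ± 0.125 TPM in WT and 0.830 ± 0.242 TPM in Col6a2-/- mice (SD, n = 8), with all 8 Col6a2-/- libraries above the WT log2 mean of their sex and overlapping ranges. Aldh3b1 was called with log2(TPM + 0.1) (adjusted p = 0.0312), after median-of-ratios scaling (0.0265), with the replicate block (0.0477) and without any of 4 single libraries (adjusted p down to 0.0322), and Aldh9a1 without WT male replicate 1 of 25 weeks (adjusted p = 0.0233). An exact two-sided permutation of genotype within sex, a test of each gene alone, gave 0.00286 for Aldh3b1, 0.00653 for Aldh1a1, 0.0204 for Aldh3a2 and 0.0473 for Aldh9a1, unadjusted for the number of genes and not run over all genes. Differences were 0.29 for Aldh3b1 (SE 0.09), -0.21 for Aldh1a1 (SE 0.11), 0.20 for Aldh3a2 (SE 0.12) and 0.28 for Aldh9a1 (SE 0.10). Aldh1a2, at 0.29 (SE 0.13, adjusted p = 0.224), Aldh2, at 0.37 (SE 0.17, adjusted p = 0.239), and Aldh1l1, at -0.11 (SE 0.29, adjusted p = 0.875), did not pass. Without Col6a2-/- female replicate 1 of 25 weeks the value of Aldh1a2 was 0.175. Macrophage markers were again higher at this age, with sums of 103 to 192 TPM against 38.1 to 108 TPM and 6 of 8 genes called. Of the fibroblast markers 5 of 9 were called higher, with sums of 493 to 798 TPM against 288 to 526 TPM and a median change of 0.58; the part of both lists in these values was not tested. Of the pathway lists, Dhrs3, Akr1b8 and Sgpl1 were each called higher and no other gene was.

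The difference between the 5-week and the 25-week genotype effect was tested for the 9 relatives, and none passed by limma, with 0.492% of all genes called. These were 9 genes higher and 54 lower, and 13 and 216 without Col6a2-/- female replicate 4 of 5 weeks. Aldh1l1 had the largest value of the 9 relatives (0.95, SE 0.41, adjusted p = 0.594) and was the only relative under 0.05 before adjustment, beside 7.01% of all genes. The described value of Aldh3a1 was -4.11, with its level falling from 20.2 to 0.135 TPM in Col6a2-/- muscle. Calls that were present at 5 weeks and absent at 25 weeks for Aldh3a2, Aldh1a2, Aldh3b1, Aldh9a1 and Aldh1l1 are therefore not shown to differ between ages.

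With age, the abundant members Aldh1a1 and Aldh6a1 rose in both genotypes. In WT mice 2 of the 9 relatives were called higher at 25 weeks and 0 lower, beside 4.47% and 15.3% of all tested genes (573 and 1963). This background moved with the scaling, to 1711 higher and 1953 lower after median-of-ratios scaling and 1133 and 1096 without mitochondrial and Rn7s genes, while Aldh1a1 and Aldh6a1 were the 2 relatives called under both. Aldh1a1 rose from 31.4 ± 8.07 to 67.2 ± 6.03 TPM in WT (SD, n = 8), a ratio of 2.14, and from 32.3 ± 6.79 to 58.1 ± 5.31 TPM in Col6a2-/- mice, a ratio of 1.80. All 8 older libraries of each genotype, from 50.8 TPM up, lay above all 8 younger ones, which reached 43.4 TPM; 0.694% of genes in WT and 0.804% in Col6a2-/- mice had older libraries that were all higher. The changes were 1.11 in WT (SE 0.11, adjusted p = 3.10e-08) and 0.85 in Col6a2-/- mice (SE 0.11, adjusted p = 1.05e-06), and their difference did not pass (-0.26, adjusted p = 0.842). With this, Aldh1a1 went from 30.4% to 47.1% of the summed TPM of the 10 genes in WT muscle.

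Aldh6a1 rose with age from 34.9 ± 7.86 to 43.7 ± 4.17 TPM in WT (0.34, SE 0.09, adjusted p = 0.00640) and from 29.5 ± 4.03 to 41.7 ± 4.64 TPM in Col6a2-/- mice (0.49, SE 0.09, adjusted p = 0.000102; SD, n = 8). The ranges of young and old overlapped in both. Among the 15 branched-chain genes, 5 were called higher and 1 lower with age in WT, and 6 higher and 1 lower in Col6a2-/- mice. In Col6a2-/- mice, 2 of the 9 relatives were called higher and 2 lower, beside 5.41% and 28.8% of all genes (694 and 3695). Here the background became 2104 higher and 2318 lower after median-of-ratios scaling and 2419 and 2128 after quantile normalization; the median tested gene was at -0.136, 0.00227 and 0.0247 in the 3 fits. The 2 that fell were Aldh1a3, by 0.27 (SE 0.09, adjusted p = 0.0202), and Aldh3b1, by 0.28 (SE 0.09, adjusted p = 0.0163). Quantile normalization ended both calls, with values of -0.12 for Aldh3b1 (adjusted p = 0.163) and -0.09 for Aldh1a3 (adjusted p = 0.398). The fall of Aldh1a3 was also not called after median-of-ratios scaling (adjusted p = 0.0803), on rescaling without mitochondrial and Rn7s genes (adjusted p = 0.0608) or without Col6a2-/- female replicate 3 of 5 weeks or female replicate 2 of 25 weeks (adjusted p up to 0.0510).

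Cell type markers moved with age too: from 5 to 25 weeks the mean fibroblast sum went from 983 to 417 TPM in WT and from 1406 to 593 TPM in Col6a2-/- mice, with 4 of 9 genes called lower in each. The macrophage sum went from 70.5 to 63.9 TPM in WT and from 227 to 132 TPM in Col6a2-/- mice (1 and 7 of 8 genes called lower), and the Schwann cell sum from 74.4 to 23.3 and from 68.5 to 27.2 TPM (2 and 4 of 4 tested genes called lower). The sum of all 11 satellite cell and regenerating fibre genes went from 134 to 118 TPM in WT and from 184 to 113 TPM in Col6a2-/- mice. It holds Mymk, Mymx and Chrng, which passed the filter only through the 5-week Col6a2-/- libraries, so it is a description. Mymx alone had means of 12.9 and 0.346 TPM in Col6a2-/- mice of 5 and 25 weeks. With those genes again not counted, 4 and 5 of 7 tested genes were called lower in WT and Col6a2-/- mice. Smooth muscle genes were called lower in 3 and 4 of 5 cases, tenocyte and endothelial genes in 2 of 4 and 2 of 5 in each genotype, and adult fibre genes in 1 of 7 in each, while no adipocyte or erythrocyte gene was called. All these counts stand beside 15.3% of all tested genes called lower in WT and 28.8% in Col6a2-/- mice (1963 and 3695 genes). Median-of-ratios scaling gave 1953 and 2318 genes. Counts near these shares are read no further. The 7 epithelial markers, given without a test, summed to 0.214 and 0.132 TPM in WT of 5 and 25 weeks. In Col6a2-/- mice of these ages they summed to 9.99 and 0.414 TPM, of which Krt18 alone made 7.94 and 0.318 TPM. Their part in the changes of the aldehyde dehydrogenases was not tested.

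Of the other 7 tested genes of the family, 0 rose and 2 fell with age in WT, beside the 4.47% and 15.3% of all genes given above. Aldh18a1, which starts proline synthesis and overlaps Gm15801 (mean 1.27 TPM, against 1.99 TPM for Aldh18a1), so that its reads are uncertain, fell by 0.65 (SE 0.12, adjusted p = 0.000308) and Aldh1l2, the mitochondrial counterpart of Aldh1l1, by 0.57 (SE 0.14, adjusted p = 0.00451). Both fell in Col6a2-/- mice as well, by 0.69 (SE 0.12, adjusted p = 6.61e-05) and 0.66 (SE 0.14, adjusted p = 0.000714), where Aldh16a1 was the third to fall, by 0.23 (SE 0.08, adjusted p = 0.0275), beside 28.8% of all genes called lower. After median-of-ratios scaling 2 of the 7 were called lower and 1 higher in WT, and 2 lower and 2 higher in Col6a2-/- mice.

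Sex was tested over the 4 combinations of genotype and age. Of the 9 relatives, 1 was called, lower in males, beside 1.18% of all genes called lower. Aldh6a1 was lower in males by a change of -0.26 (SE 0.06, adjusted p = 0.0142), and this call was lost on rescaling without mitochondrial and Rn7s genes (adjusted p = 0.180). Aldh1a2 was higher in males by a value that did not pass (0.31, SE 0.09, adjusted p = 0.0713), and it was called after quantile normalization (adjusted p = 0.0491), on rescaling without mitochondrial and Rn7s genes (adjusted p = 0.0317) and without any of 4 single libraries, the lowest without Col6a2-/- female replicate 1 of 25 weeks (0.37, adjusted p = 0.00701). For the genotype effect at 5 weeks in males minus that in females, limma called 0 of the 9 relatives and 0.0% of all tested genes, with 1 and 253 genes at an unadjusted p under 0.05. That 1 gene was Aldh1a1, with a genotype difference of -0.27 in females and 0.38 in males (0.65, SE 0.22, adjusted p = 0.9998).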

How the data were processed

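Quadriceps RNA of 32 mice was sequenced as TruSeq paired-end libraries, per the labels' protocols. The submitters' processing notes name FastQC, MultiQC, Trimmomatic, HISAT2, SAMtools and StringTie, and GRCm38 (mm10). The authors deposited TPM, FPKM and Coverage of each gene, library by library, per the file headers. FPKM (scaled for length and depth) served as an alternative, and the deposited coverage served with it for relative depth; no read counts were used, so precision is read from the spread between mice. TPM was summed per gene ID.

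Values were log2(TPM + 1) of the 12817 genes that reached 1 TPM in 4 or more libraries, so fold changes of low genes are understated. A mean for each of 8 groups was fitted with limma 3.58.1 (eBayes with trend) in R 4.3.3, with Benjamini-Hochberg adjustment over all genes and two-sided tests in 7 comparisons; called means an adjusted p under 0.05. The step was tested on simulated data. The R package data-table (1.17.8), Python 3.11.15, numpy 2.4.6, pandas 2.3.3, scipy 1.17.1 and matplotlib 3.10.9 did the rest. Members, lists and the rule for named genes (all members, the family, up to 4 called genes a list, neighbours and the 8 genes most like Aldh3a1) were chosen with earlier results of these data known. Alternatives were another pseudocount, filter, scaling, unit, a replicate block and leaving out each library. Mice were separate animals, so p-values measure the spread between these mice. Some list genes are not reported here. Coding identities used GENCODE M21.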

Additional observations from a re-analysis of the deposited data

Results flagged for a closer look

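In 4 of 80 groups of 4 libraries, 1 library stood apart from the other 3 by Dixon's criterion, which chance meets in about 1 in 20 groups. Aldh3a2 was 5.7 TPM in WT male replicate 1 of 25 weeks, against 4.01 to 4.23 TPM in the others, and Aldh6a1 was 42.8 TPM in the same library, against 38.8 to 39.4 TPM. Aldh1a1 was 27.9 TPM in Col6a2-/- male replicate 1 of 5 weeks, against 35.1 to 35.6 TPM. Aldh1a2 was 2.13 TPM in Col6a2-/- female replicate 1 of 25 weeks, against 0.562 to 0.681 TPM. The genotype effect on Aldh3a1 differed between ages by -4.11 on the log2(TPM + 1) scale, a described value, since the gene was chosen on the 5-week effect.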

How the results depend on the processing

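Of 277 values under other settings, 243 kept their direction and side of the threshold, 11 lost a call, 12 gained one, 8 changed sign and 3 moved in another way. Leaving out 1 library kept 1055 of 1088. With a filter of at least 5 TPM the number of relatives called at 5 weeks went from 5 to 2 and in age in Col6a2-/- mice from 4 to 2, since only 5 were then tested. At 25 weeks the count of 0 became 1 (Aldh3b1) with log2(TPM + 0.1), median-of-ratios scaling or the replicate block, and for sex 1 became 2 with quantile normalization (Aldh1a2). Leaving out 1 library gave 3 to 6 calls at 5 weeks, 0 to 1 at 25 weeks and 1 to 2 for sex. Uncalled differences changed sign at 5 weeks for Aldh1a1 (-0.13 median-of-ratios, -0.0584 quantile), Aldh1a3 (-0.0394, -0.122) and Aldh2 (-0.136, -0.0883), and at 25 weeks for Aldh1a3 (0.00262, log2(TPM + 0.1)). The 25-week value of Aldh3a1, described without a test, also changed sign (-0.0349, quantile). Among the genotype differences at each age, leave-one-out ranges crossed 0 for Aldh1a1 (-0.0321 to 0.135) and Aldh2 (-0.0334 to 0.157) at 5 weeks. At 25 weeks they did so for Aldh1a3 (-0.0467 to 0.0395) and Aldh1l1 (-0.264 to 0.0679). Some ranges of the other comparisons crossed 0 as well, such as Aldh9a1 for genotype by age (-0.068 to 0.0621) and Aldh2 for age in WT (-0.136 to 0.0602). The cause was not tested. With log2(TPM + 0.1) the described values of Aldh3a1 were 6.97 at 5 weeks, -6.33 with age and -6.67 for genotype by age. Same-numbered WT and Col6a2-/- libraries had residual correlations from -0.0612 to 0.234, above 0.1 in 8 of 16 pairs, which does not meet the criterion for pairing (every pair above 0.1), so the fit without the block was kept; beyond Aldh3b1 at 25 weeks (adjusted p = 0.0477) the block changed no call of a member. Levels under 1 TPM rest on few reads, and depth in reads is unknown.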
